A study of Mus musculus with 2 samples.

Results

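The muscle-restricted ubiquitin ligases and the atrophy regulators around them were described in the hearts of young mice. The set held 10 genes of 55536 in the tables, taken by name, with no threshold on a measured value: the RING-type ligases Trim63, Trim54 and Trim55, the F-box proteins Fbxo32 and Fbxo40, the cullin-RING adaptor Asb2, the transcription factors Foxo1 and Foxo3, the secreted growth inhibitor Mstn and the myosin chaperone Unc45b. Each symbol was read from the transcript entries and joined by gene identifier to the gene tables of both hearts, and all 10 were found. The hearts came from B6CASTF1/J males, the F1 cross of the B6 and CAST strains, at 36 days of age. Total RNA was sequenced after removal of ribosomal RNA, from 300 ng of input to which ERCC control RNAs had been added. There was 1 group with 2 biological replicates, no treatment and no other genotype, so no comparison between groups could be made. The replicates, each called a heart here, are separate biosamples with a shared donor entry. It is not stated whether they came from separate animals, so the spread between them may be partly technical. The libraries held 42481559 expected counts in replicate 2 and 41846508 in replicate 1.

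Ubiquitin ligases attach ubiquitin chains to chosen proteins and thereby send them to the proteasome. In striated muscle a small set of ligases acts on the sarcomere, the contractile unit, and several of them are known as atrogenes, genes whose RNA increases when skeletal muscle wastes. FoxO transcription factors switch on atrogenes such as Trim63 and Fbxo32 when insulin and AKT signalling is low, glucocorticoids act on Trim63 as well, and myostatin, a hormone made mainly by skeletal muscle, limits muscle growth through activin receptors and SMAD proteins. In the heart the same ligases are known for the turnover of myosin, troponin I, titin-associated proteins and filamins.

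The label of heart tissue was checked against marker genes. All 8 cardiomyocyte markers were above 1 TPM (a level per transcript length, scaled to the same total in every library) in both hearts, and together they held 30440 TPM in replicate 2 and 27790 TPM in replicate 1. Of 12 skeletal muscle markers 1 reached 1 TPM in both hearts, Tnni2 with 1.26 TPM in replicate 2 and 1.10 TPM in replicate 1, and the 12 summed to 3.14 and 2.31 TPM in replicates 2 and 1. Myog, the skeletal myogenic factor, had 0 counts in both hearts. Levels below are those of the first deposited quantification, made from alignments to the transcriptome, unless the second, made directly from the reads, is named. Means are given with the SD over n = 2 biosamples throughout. An RNA level in bulk tissue does not tell fewer cells of a type from less RNA per cell.

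Of the 10 genes, 9 reached 1 TPM in both hearts, where 49.7% of 22015 nuclear protein-coding genes did, and 8 of them stood at 30 TPM or more. The genes were chosen as muscle genes with earlier results of these data known, so these shares are a description and not a test. The order from highest to lowest mean was Asb2, Trim63, Trim54, Unc45b, Fbxo40, Trim55, Fbxo32, Foxo3, Foxo1 and Mstn, from 184.3 TPM down to 0.15 TPM. Summed over the 10 genes the level was 676.4 TPM in replicate 2 and 605.3 TPM in replicate 1, or 0.178% and 0.161% of the TPM of nuclear protein-coding genes. Several neighbours in this order were close. The hearts overlapped for Unc45b and Fbxo40, whose order differed between the hearts. They also overlapped for Fbxo32 and Foxo3, although Fbxo32 was the higher within each heart. The gap of 19.7 TPM between Trim63 and Trim54 was smaller than the sum of their SDs, 22.7 TPM. Within each heart Trim63 was nevertheless the higher in both quantifications, by 1.069 to 1.265 times. Trim55 and Fbxo32 changed places in the second quantification.

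**Figure D1:**
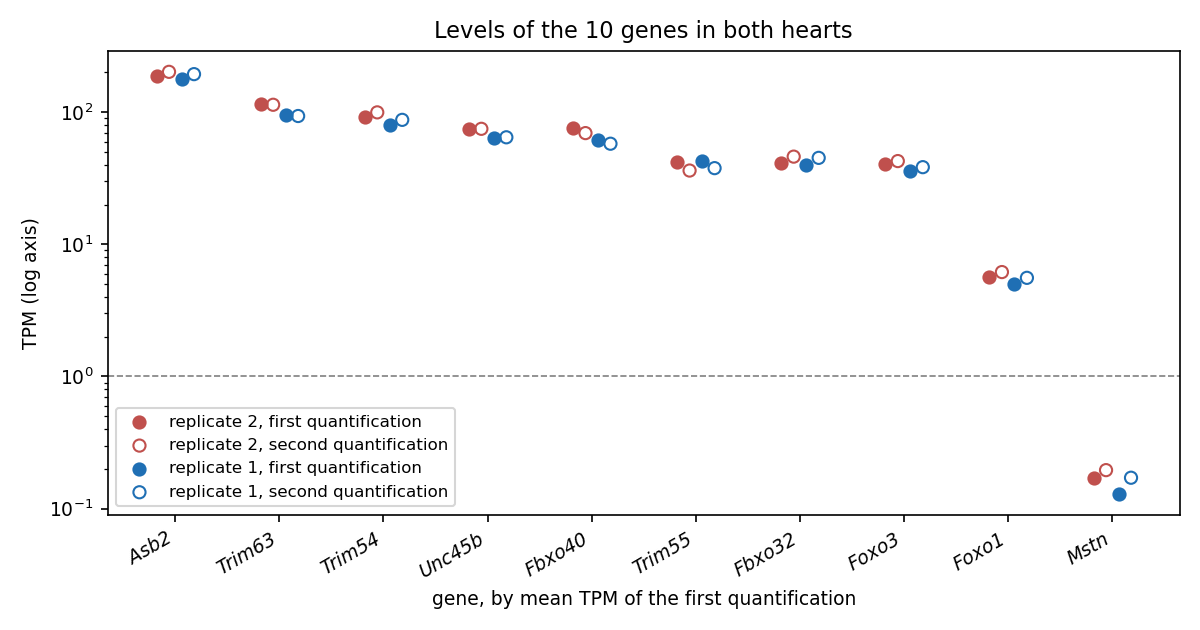
Level of each gene in TPM on a log axis, with replicate 2 in red and replicate 1 in blue, filled for the first and open for the second quantification, and a dashed line at 1 TPM. Asb2 stands highest near 184.3 TPM, 8 genes lie above 30 TPM in both hearts, Foxo1 lies near 5.36 TPM and Mstn at 0.15 TPM.

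Trim63, known as MuRF1, is the muscle RING finger ligase that marks myosin heavy chain, troponin I and other sarcomere proteins. It lies at chr4:134315120-134329629 on the plus strand (positions here are on mm10, counted from 1). It had 116 TPM in replicate 2 and 95.4 TPM in replicate 1, a mean of 105.7 ± 14.6 TPM that ranked 514 of 22015 nuclear protein-coding genes. Its SD was the largest among the 10 genes in TPM. Trim54, known as MuRF3, binds microtubules and the Z-disc and lies at chr5:31116712-31137630 on the plus strand. Its level was 91.8 TPM in replicate 2 and 80.4 TPM in replicate 1, a mean of 86.1 ± 8.03 TPM. Trim55, known as MuRF2, is a titin-associated member of the same subfamily at chr3:19644474-19692421 on the plus strand. It had 41.8 TPM in replicate 2 and 42.6 TPM in replicate 1, a mean of 42.2 ± 0.580 TPM, and so was close between hearts where its relatives were higher in replicate 2.

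The 3 MuRF genes summed to 249.6 TPM in replicate 2 and 218.4 TPM in replicate 1. Trim63 held 46.5% and 43.7% of that sum in replicates 2 and 1, Trim54 36.8% in each, and Trim55 16.7% and 19.5%. Trim63 stood 2.51 ± 0.381 times as high as Trim55 and 1.23 ± 0.0559 times as high as Trim54. All 3 were among the 4 most abundant of 68 TRIM genes, whose median was 1.55 TPM and of which 35 reached 1 TPM in both hearts. The most abundant was Trim72, a membrane repair protein of striated muscle, at 121 ± 9.42 TPM. In the second quantification Trim72 stayed first and Trim63 second, while Trim55 was the fifth in the family.

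The bases before the start of Trim63 are shown because this promoter is the textbook site where FoxO factors and the glucocorticoid receptor meet. It was taken from RefSeq on GRCm38.p6, chr4:134314870-134315119 on the plus strand, and ends at the base before the start of its main transcript Trim63-202. Capitals mark every match, on either strand, to 6 short motifs: the forkhead core GTAAACA, the E-box CANNTG, the MEF2 core (CTA and TAG with 4 bases between them), the MCAT core CATTCC, the glucocorticoid receptor core AGAACA and the TATA box TATAAA.
Trim63: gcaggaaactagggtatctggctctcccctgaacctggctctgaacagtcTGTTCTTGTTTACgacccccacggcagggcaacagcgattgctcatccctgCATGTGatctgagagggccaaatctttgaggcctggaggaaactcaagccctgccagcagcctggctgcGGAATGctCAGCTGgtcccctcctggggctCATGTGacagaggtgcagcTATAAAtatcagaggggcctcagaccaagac
There were 7 matches. The receptor core began 200 bases before the start and the forkhead core 194 bases before it, both on the reverse strand and adjoining without overlap. The MCAT core began 80 bases before the start, the E-boxes 149, 72 and 50 bases before it, and the TATA box 31 bases before it. Of 32817 promoter windows of this length, 3.16% held the forkhead core, 16.1% the receptor core and 12.4% the TATA box. Both the forkhead and the receptor core were in 225 windows or 0.686%, a pair that was counted after the matches in Trim63 were seen. Windows were matched for 8 of the 10 genes, Asb2 and Fbxo40 with 2 each. Fbxo32 and Trim55 had no window, so their promoters were not searched. Trim63 was the only gene of the 8 with a forkhead core in its window. The receptor core was in 3 of the 8 genes, Trim63, Trim54 and Fbxo40, in the last before its other start. E-boxes were in 7 of the 8 genes and in 66.2% of all windows. MCAT cores were in 3 genes and 12.6% of windows, and MEF2 cores in 0 genes and 3.20% of windows. A match of letters is a description and not a bound site.

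Fbxo32 and Fbxo40 encode F-box proteins, the substrate-binding subunits of SCF ligases. Fbxo32, known as atrogin or MAFbx and linked to calcineurin and Foxo signalling in heart, lies at chr15:58175879-58214932 on the minus strand. It had 41.0 TPM in replicate 2 and 40.1 TPM in replicate 1, a mean of 40.6 ± 0.629 TPM. Fbxo40, a muscle-restricted F-box protein that targets the insulin receptor substrate IRS1, lies at chr16:36963460-36990467 on the minus strand. It reached 76.0 TPM in replicate 2 and 61.6 TPM in replicate 1, a mean of 68.8 ± 10.2 TPM. Fbxo40 was thus above Fbxo32 in both hearts, by 1.85 times in replicate 2 and 1.54 times in replicate 1, and by 1.39 times on average in the second quantification. Of 77 F-box genes, whose median was 1.96 TPM, Fbxo40 was the most abundant and Fbxo32 the third, after Fbxo31 at 41.0 ± 5.44 TPM. The order of Fbxo31 and Fbxo32 differed between the hearts. Fbxo32 was listed with a single transcript of 6976 nt, and Trim63 stood 2.60 ± 0.321 times as high as Fbxo32.

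Asb2, the adaptor that brings filamins to Cul5 ligases, was the most abundant of the 10 genes. It lies at chr12:103321142-103356001 on the minus strand and had 189 TPM in replicate 2 and 180 TPM in replicate 1, a mean of 184.3 ± 6.60 TPM that ranked 301 of 22015. It stood 1.76 ± 0.181 times as high as Trim63. Within the 18 ASB genes it held 45.3% of the TPM. Next came Asb11 at 63.6 ± 0.502 TPM and Asb8 at 35.5 ± 1.31 TPM. The ASB family as a whole was well represented, with 15 of 18 genes at 1 TPM or more in both hearts and a median of 5.26 TPM.

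Asb2 has starts 17628 nt apart, and both are shown because the quantifications split the gene between them differently. Asb2-201 begins at the upstream start and encodes 634 codons, and Asb2-204 begins at the downstream start and encodes 586 codons. The windows before them lie on the minus strand at chr12:103356002-103356251 and chr12:103338391-103338640 on GRCm38.p6, from RefSeq, and capitals mark the same 6 motifs. The RefSeq downstream start lies 17 nt from the start of Asb2-204.
Asb2 upstream start: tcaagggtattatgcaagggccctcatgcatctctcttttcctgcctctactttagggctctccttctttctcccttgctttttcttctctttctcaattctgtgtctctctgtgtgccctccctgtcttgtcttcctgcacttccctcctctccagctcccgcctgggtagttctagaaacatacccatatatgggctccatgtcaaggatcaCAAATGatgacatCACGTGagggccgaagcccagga
Asb2 downstream start: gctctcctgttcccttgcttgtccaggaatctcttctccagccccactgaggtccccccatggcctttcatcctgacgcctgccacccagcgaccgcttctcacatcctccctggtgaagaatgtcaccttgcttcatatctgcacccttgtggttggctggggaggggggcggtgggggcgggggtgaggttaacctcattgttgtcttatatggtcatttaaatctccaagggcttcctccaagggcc
The upstream window held E-boxes 36 and 23 bases before the start and no other match, and the downstream window held 0 matches. In the first quantification Asb2-201 held 65.5% of the gene's TPM in replicate 2 and 67.5% in replicate 1. Asb2-204 held 33.0% and 31.3%, on 4598 and 4131 counts in replicates 2 and 1. The second quantification gave Asb2-204 3.93% and 0.216%, so the use of the downstream start is uncertain in these libraries. Summed over transcripts, Asb2 had 184.3 ± 6.60 TPM by the first quantification and 198 ± 5.61 TPM by the second. In human cells the longer protein, ASB2-beta, is known from muscle and the shorter, ASB2-alpha, from blood cells.

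Foxo3 and Foxo1 encode the forkhead factors that AKT keeps out of the nucleus. Foxo3, at chr10:42181841-42276755 on the minus strand, had 40.8 TPM in replicate 2 and 36.0 TPM in replicate 1, a mean of 38.4 ± 3.40 TPM. Foxo1, at chr3:52268336-52353221 on the plus strand, had 5.69 TPM in replicate 2 and 5.03 TPM in replicate 1, a mean of 5.36 ± 0.467 TPM. Foxo3 was 7.18 times as high as Foxo1 in replicate 2 and 7.16 times in replicate 1, a mean of 7.17 ± 0.0102. This SD rests on 2 values and does not cover counting error, and the second quantification gave a mean of 6.90 times. Foxo4 lay between Foxo3 and Foxo1 at 21.6 ± 2.38 TPM, and Foxo6 stood at 0.825 ± 0.0495 TPM. Of 44 forkhead genes 13 reached 1 TPM in both hearts. Foxn3 led at 42.7 ± 2.20 TPM, with Foxo3 the second and Foxo1 the ninth, and the second quantification put Foxo3 above Foxn3. The 250 bases before the RefSeq starts of Foxo3 and Foxo1 held 31 and 20 CG pairs, against 2 to 5 in the windows of Trim63, Trim54, Fbxo40, Asb2, Unc45b and Mstn.

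Mstn, which encodes myostatin, was the only one of the 10 genes under 1 TPM. It lies at chr1:53061640-53068079 on the plus strand and had 0.17 TPM in replicate 2 and 0.13 TPM in replicate 1, a mean of 0.15 ± 0.028 TPM. These levels rest on 15 counts in replicate 2 (exact 95% Poisson interval 8.39 to 24.7) and 11 in replicate 1 (5.49 to 19.7), which cover counting error only. The intervals overlap, and the log2 ratio of replicate 2 over replicate 1 was 0.37 with a 95% counting interval of -0.82 to 1.67, so no difference between the hearts was detectable for Mstn at this depth. It ranked 19 of 32 TGF-beta superfamily ligands, whose median was 0.183 TPM. Bmp10, a ligand of the heart's trabeculae and atria, led them at 14.7 ± 0.106 TPM, followed by Bmp6 at 11.6 ± 1.32 TPM and Tgfb1 at 9.31 ± 0.714 TPM.

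The bases before the Mstn start are shown as the promoter of a gene known for its activity in skeletal muscle, next to those of abundant heart genes. They lie at chr1:53061390-53061639 on the plus strand of GRCm38.p6, from RefSeq, with the same 6 motifs in capitals.
Mstn: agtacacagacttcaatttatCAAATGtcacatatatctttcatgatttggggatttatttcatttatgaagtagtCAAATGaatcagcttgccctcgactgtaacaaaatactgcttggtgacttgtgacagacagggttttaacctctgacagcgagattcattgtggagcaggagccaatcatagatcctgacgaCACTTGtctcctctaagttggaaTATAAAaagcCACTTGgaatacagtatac
E-boxes began 229, 174, 52 and 19 bases before the start, and a TATA box began 29 bases before it. The window before the main start of Fbxo40, an abundant gene here, also held 4 E-boxes, and 66.2% of all windows held an E-box. Mstn and Trim63 were the only genes of the 8 with a TATA box in the window.

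Mstn's pathway was better represented than the ligand. Of the 20 other genes listed for it, 15 reached 1 TPM in both hearts. The type II activin receptors Acvr2a and Acvr2b, which bind myostatin, stood at 5.83 ± 0.488 and 2.14 ± 0.0636 TPM. The type I receptors Acvr1b and Tgfbr1 stood at 4.33 ± 0.474 and 6.52 ± 0.552 TPM. The close paralog Gdf11 was at 0.960 ± 0.127 TPM, and the inhibitor Fstl3 at 1.52 ± 0.120 TPM. Furin, which cleaves the myostatin precursor, reached 44.0 ± 0.424 TPM.

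Unc45b, the striated muscle chaperone that folds the myosin head together with HSP90, lies at chr11:82910550-82943403 on the plus strand. It had 74.0 TPM in replicate 2 and 64.3 TPM in replicate 1, a mean of 69.2 ± 6.88 TPM. The general paralog Unc45a had 5.73 and 5.29 TPM in replicates 2 and 1, so Unc45b was 12.5 ± 0.541 times as high and held 92.6% of the pair's TPM. Its known partners were abundant. Smyd1, the muscle methyltransferase that works on myosin assembly, stood at 133 ± 7.40 TPM, Hsp90ab1 at 479 ± 20.8 TPM and Hsp90aa1 at 75.4 ± 2.28 TPM. Stub1, known as CHIP, and Ube4b, ligases that ubiquitinate the UNC-45 protein of worms, stood at 39.8 ± 1.56 and 17.3 ± 0.856 TPM.

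**Figure D2:**
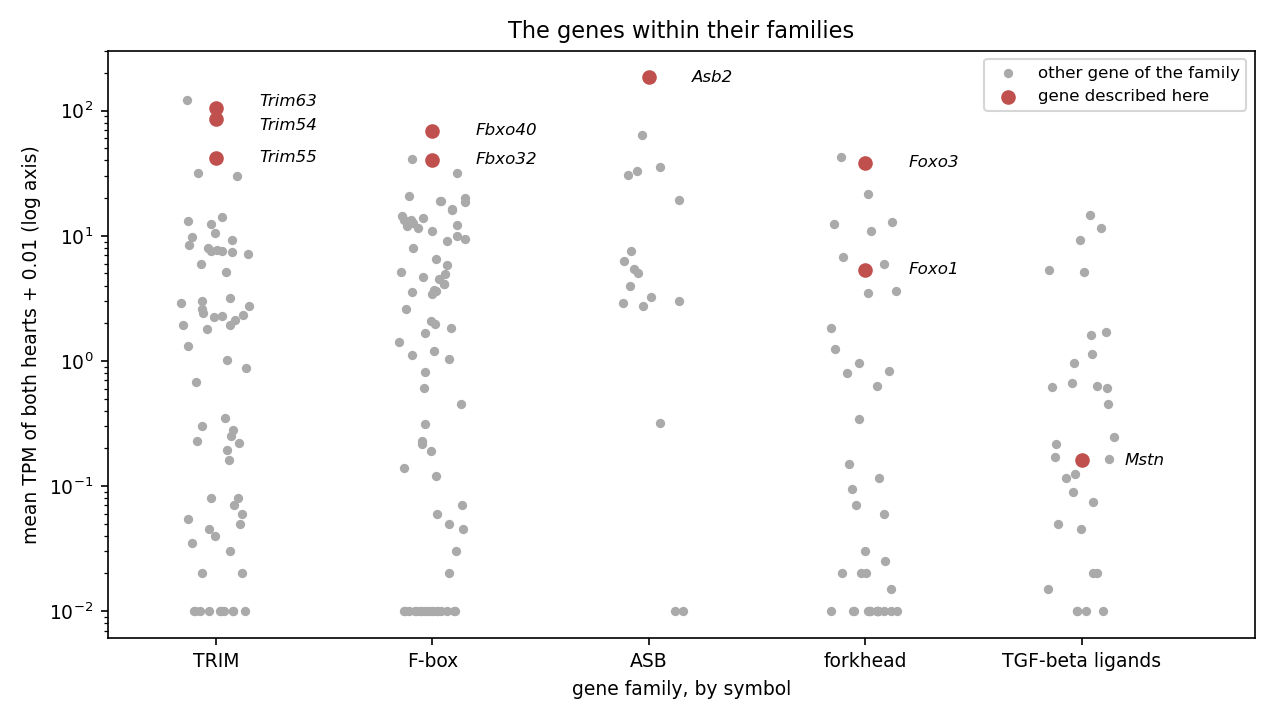
Mean TPM of both hearts plus 0.01, on a log axis, for every gene of 5 families, with the genes described here in red and the others in grey, spread sideways only for legibility. Asb2 and Fbxo40 lead their families, the 3 MuRF genes are among the 4 highest TRIM genes, and Mstn lies at 0.15 TPM near the middle of the ligands.

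The 10 genes had 30 annotated transcripts, and 2 genes, Fbxo32 and Foxo1, had 1 each. The leading transcript was protein coding in all 10. The hearts shared it in all 8 genes with several transcripts, where 91.8% of 6926 nuclear protein-coding genes with several transcripts and 5 TPM or more did. The quantifications also shared it in all 8, where 75.8% of the 6926 did, although Mstn is below that level. Trim63 was close to a single form, with Trim63-202 of 355 codons at 98.3% of TPM in replicate 2 and 98.8% in replicate 1. Trim54-201 of 366 codons held 99.0% and 99.7% in replicates 2 and 1.

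In the first quantification Fbxo40 and Trim55 each had a short noncoding transcript with a large share of TPM and a small share of reads. Fbxo40-204, of 383 nt, held 21.1% of TPM in replicate 2 and 20.5% in replicate 1, but only 1.502% and 1.449% of the gene's counts, and was listed at 0 in the second quantification. There the retained intron transcript Fbxo40-203 held 6.32% and 9.999% in replicates 2 and 1. Trim55-202, of 506 nt, held 25.9% and 24.1% of first-quantification TPM in replicates 2 and 1, and 5.38% and 4.91% of counts. The second quantification gave it only 3.03% and 0.683% of TPM in replicates 2 and 1, and gave Trim55-201 97.0% and 99.3%. TPM divides counts by length, so a short entry weighs more in TPM than in reads. Coding transcripts alone held 78.5% of the first-quantification TPM of Fbxo40 in replicate 2 and 79.0% in replicate 1. For Trim55 they held 74.2% and 75.9%.

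Unc45b-201, of 929 codons, held 91.1% of TPM in replicate 2 and 90.3% in replicate 1, and Unc45b-204, a noncoding entry of 498 nt, held 8.53% and 9.38%. The second quantification gave 81.6% and 81.3% to Unc45b-201 in replicates 2 and 1, and 18.4% and 18.7% to Unc45b-202, which starts 703 nt upstream. The first gave Unc45b-202 0.13% in replicate 2 and 0 in replicate 1, so the upstream start is uncertain. Foxo3-203, with the full 672 codons, held 87.9% in replicate 2 and 85.1% in replicate 1. Foxo3-202, with 244 codons, held 6.55% and 6.44% on 110.1 and 95.03 counts in replicates 2 and 1. Foxo3-201 reached 5.52% in replicate 1 of the second quantification, and encodes the same 672 codons. For Mstn the split into Mstn-201 and Mstn-202 rests on the 15 and 11 counts above and cannot be read.

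**Figure D3:**
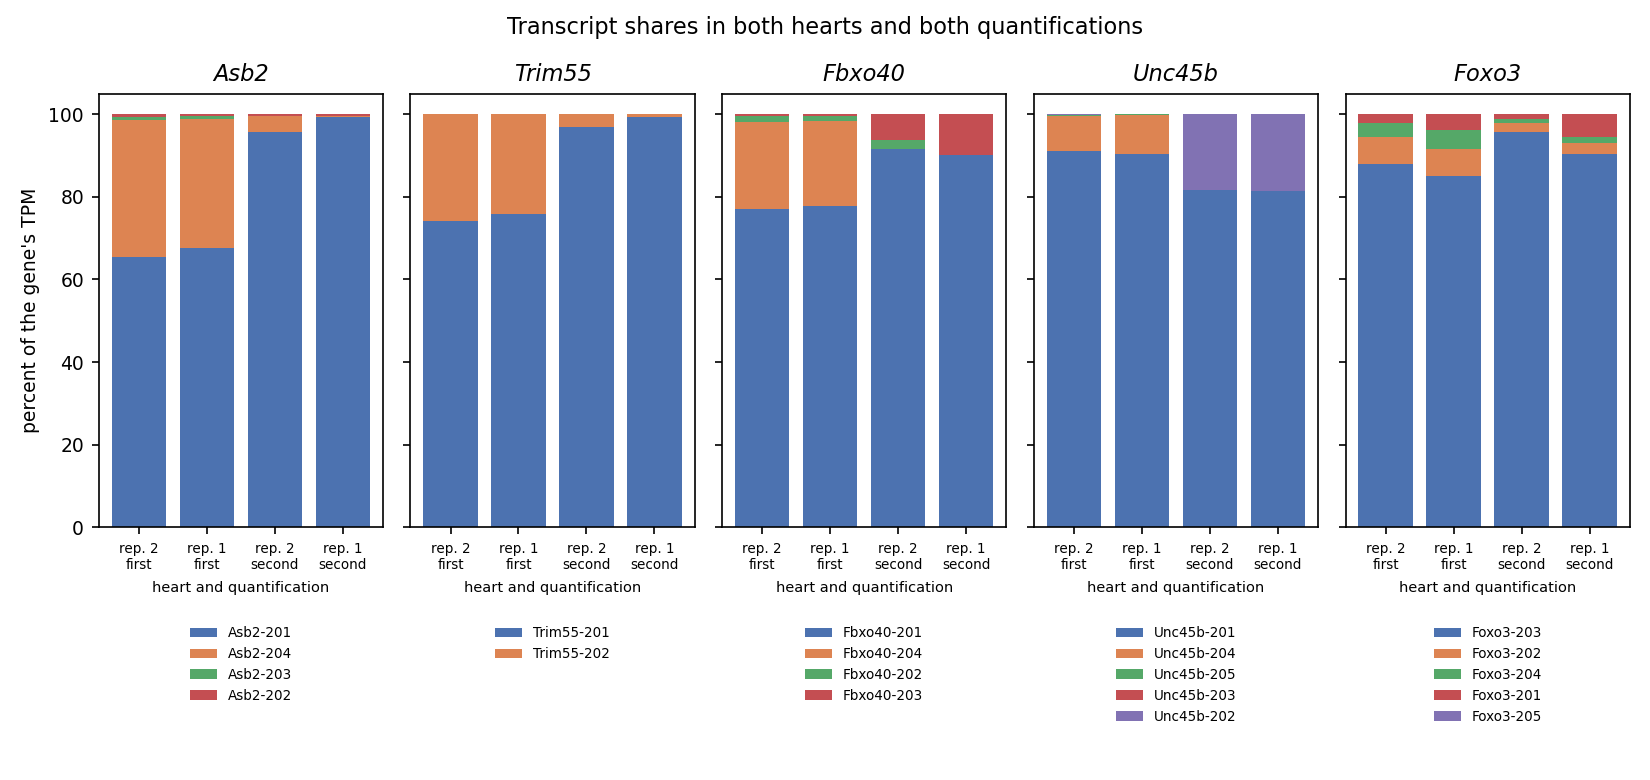
Share of each gene's TPM held by its transcripts, in percent, for 5 genes, with bars for replicates 2 and 1 in the first and then the second quantification. The hearts are close for each leading transcript, the widest pair being Foxo3-203 at 95.6% and 90.4% in the second quantification, while Asb2-204 in replicate 2 holds 33.0% in the first quantification and 3.93% in the second.

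Other annotated genes overlap 6 of the 10, 8 in all and 6 of them on the opposite strand. Their highest count was 25, for Gm38034 in Foxo1 in replicate 2, where Foxo1 had 1647. BC002189, inside Trim55 on the same strand, had 17 and 22 counts in replicates 2 and 1, against 2763 and 2860 for Trim55. It is not stated whether counting used the strand, and without it reads of a gene and its antisense partner cannot be told apart, but these counts are small beside those of the genes they overlap. Per gene, the ratio of first over second TPM ran from 0.818 for Mstn to 1.14 for Trim55.

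The hearts were then set against each other as a measure of the spread, with log2 ratios of replicate 2 over replicate 1 on scaled expected counts and exact 95% counting intervals. With 2 hearts no test could pass a threshold, because the smallest p that exact sign permutations allow is 0.5. Mstn was below the mean count of 50 that was asked for, which left 9 genes. Of these, 0 were 1.5-fold apart, where 4.27% of 12541 genes were, and 0 were 2-fold apart, where 1.28% were. With 9 genes, a count of 0 is near either background. Fbxo40 had the largest ratio, 0.25 with an interval of 0.21 to 0.29, on 10238 counts in replicate 2 and 8335 in replicate 1. Trim63 followed at 0.24 (0.19 to 0.29), on 6965 and 5710 counts in replicates 2 and 1.

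The next was Unc45b at 0.17 (0.13 to 0.22). Foxo3 stood at 0.17 (0.12 to 0.21) and Foxo1 at 0.14 (0.035 to 0.24), so that both FoxO genes were higher in replicate 2 by a like amount. Trim54 stood at 0.15 (0.086 to 0.22). Asb2 was at 0.027 (-0.0058 to 0.059) and Fbxo32 at -0.0074 (-0.049 to 0.034), both with intervals that hold 0, and Fbxo32 turned to 0.016 when scaled to library totals and 0.066 when scaled to spike-ins. Trim55 alone had an interval below 0, at -0.095 (-0.17 to -0.019). Thus 7 of 9 ratios were above 0 in the main scaling, where 50.1% of all genes were. Under library totals and spike-in totals 8 were, but these scalings also put the median of all genes higher, at 0.023 and 0.074. Intervals lay above 0 for 6 genes and below 0 for 1, against 15.5% and 16.8% of all genes, but each of the 9 had 1451 counts or more in each heart and narrow intervals. The median ratio was 0.15, against 0.00053 over all genes tested, and the median fold in either direction was 1.11 against 1.08. The atrogenes Trim63 and Fbxo32 did not share a ratio, 0.24 against -0.0074, with intervals that do not overlap. The second quantification gave the same sign for all 9, from -0.13 for Trim55 to 0.24 for Fbxo40.

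**Figure D4:**
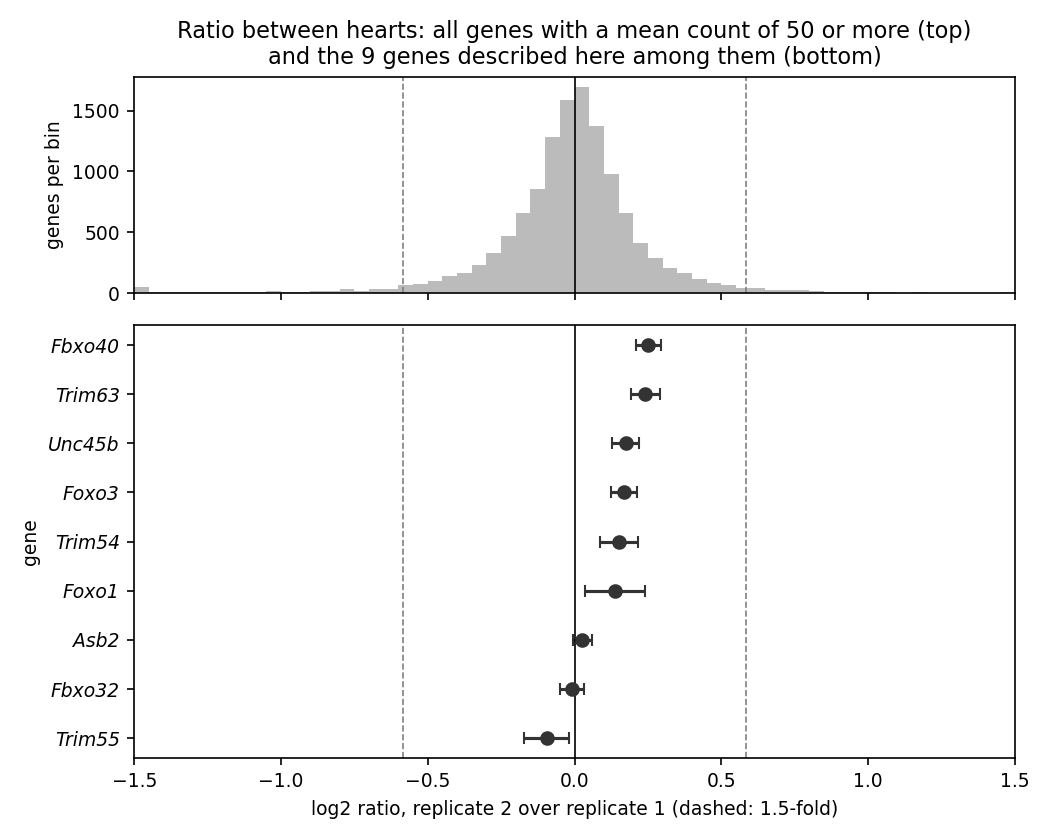
Log2 ratio of replicate 2 over replicate 1, as a histogram over 12541 genes (top, with the end bins holding everything beyond 1.5 in size) and for 9 of the genes described here with exact 95% counting intervals (bottom). All 9 lie inside the dashed lines at 1.5-fold, from -0.095 for Trim55 to 0.25 for Fbxo40.

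Ratios of cell type markers were described beside these. All 8 cardiomyocyte markers were higher in replicate 2, with a median log2 ratio of 0.081 and a range of 0.036 to 0.13. The 4 red cell and 6 adipocyte markers with a mean count of 50 or more were all lower in replicate 2, with median log2 ratios of -1.19 for the red cell and -3.07 for the adipocyte markers. All 5 listed red cell markers summed to 6207 TPM in replicate 2 and 13380 TPM in replicate 1. All 7 adipocyte markers summed to 357 TPM in replicate 2 and 449.8 TPM in replicate 1, most of it Fabp4 with 349 and 382 TPM. Ucp1 had 0.89 TPM in replicate 2 and 31.6 TPM in replicate 1, and no marker of either list was at 0. Fibroblast markers had a median of -0.28 and atrial markers of -0.44, while endothelial markers were at -0.018 and macrophage markers at -0.078. Their part in the ratios of the 10 genes was not tested.

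Genes around the 10 were then described by lists. Of 23 other ligases of striated muscle, 22 reached 1 TPM in both hearts, with Nedd4 at 135 ± 0.594 TPM, Trim72 at 121 ± 9.42 TPM and Klhl31 at 46.5 ± 3.75 TPM. Their median ratio was 0.050, and 1 was 1.5-fold higher in replicate 2, where 1.69% of all genes were. This was Kbtbd13, at 0.77 on 87 and 49 counts in replicates 2 and 1. The 12 genes listed for cullin-RING ligases, the class to which Asb2, Fbxo32 and Fbxo40 belong, all reached 1 TPM, and 0 were 1.5-fold apart. Among them were Cul5 at 17.6 ± 1.48 TPM, Elob at 134 ± 0.0990 TPM and Skp1a at 90.7 ± 0.0636 TPM. Reported substrates of the ligases, 20 genes, had a median of 0.039 and 0 were 1.5-fold apart. Among them Flna, a widely expressed filamin, stood at -0.30 and Flnc, the muscle form, at 0.047.

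Among the signals known to act on Trim63 and Fbxo32, some genes had wider ratios. Of 15 insulin and AKT genes 2 were 1.5-fold higher in replicate 1, where 2.58% of all genes were. These were Irs2 with 4.86 TPM in replicate 2 and 10.9 TPM in replicate 1, and the kinase Sgk1 with 14.3 and 36.7 TPM. Of 9 measured glucocorticoid and cytokine genes 3 were, the glucocorticoid-induced Tsc22d3 with 55.1 and 102 TPM in replicates 2 and 1, Nfkbia with 12.1 and 35.4 TPM, and Per1 with 12.6 and 25.3 TPM. Beside them, the glucocorticoid receptor gene Nr3c1 stood at 0.044 (-0.025 to 0.11) and its induced gene Fkbp5 at -0.076 (-0.16 to 0.0037), both with intervals that hold 0. The median over the list was -0.11, and 2 of the 9 ratios were above 0.

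Among 22 reported FoxO targets, all at 1 TPM or more, 1 was 1.5-fold higher in replicate 2, where 1.69% of all genes were, and 3 were in replicate 1, where 2.58% were. Txnip, an inhibitor of glucose uptake, had 428 TPM in replicate 2 and 218 TPM in replicate 1. Ddit4, an inhibitor of mTORC1 signalling, had 13.7 and 87.5 TPM in replicates 2 and 1, and Cdkn1a, a cell cycle inhibitor, 31.0 and 72.3 TPM. Irs2 was the third. Pdk4, which blocks glucose oxidation, was the most abundant at 705 TPM in replicate 2 and 632 TPM in replicate 1, a log2 ratio of 0.16. The median over the list was 0.054. Txnip and Ddit4, both listed as FoxO targets, lay on opposite sides at 0.96 and -2.71, and Foxo3 and Foxo1 stood at 0.17 and 0.14.

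In the myostatin pathway 1 of 18 measured genes was 1.5-fold apart, a share near the 4.27% of all genes. This was Inhba, the activin A subunit, with 1.14 TPM in replicate 2 and 2.07 TPM in replicate 1. Fst, the activin and myostatin inhibitor, was under the count minimum, with 18 counts in replicate 2 and 37 in replicate 1. The pathway's median was -0.017. The 9 genes listed around myosin chaperoning, the paralog Unc45a among them, had a median of 0.017 and 0 were 1.5-fold apart. Hspa8 was lowest at -0.15 and Smyd1 highest at 0.081, below the 0.17 of Unc45b.

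**Figure D5:**
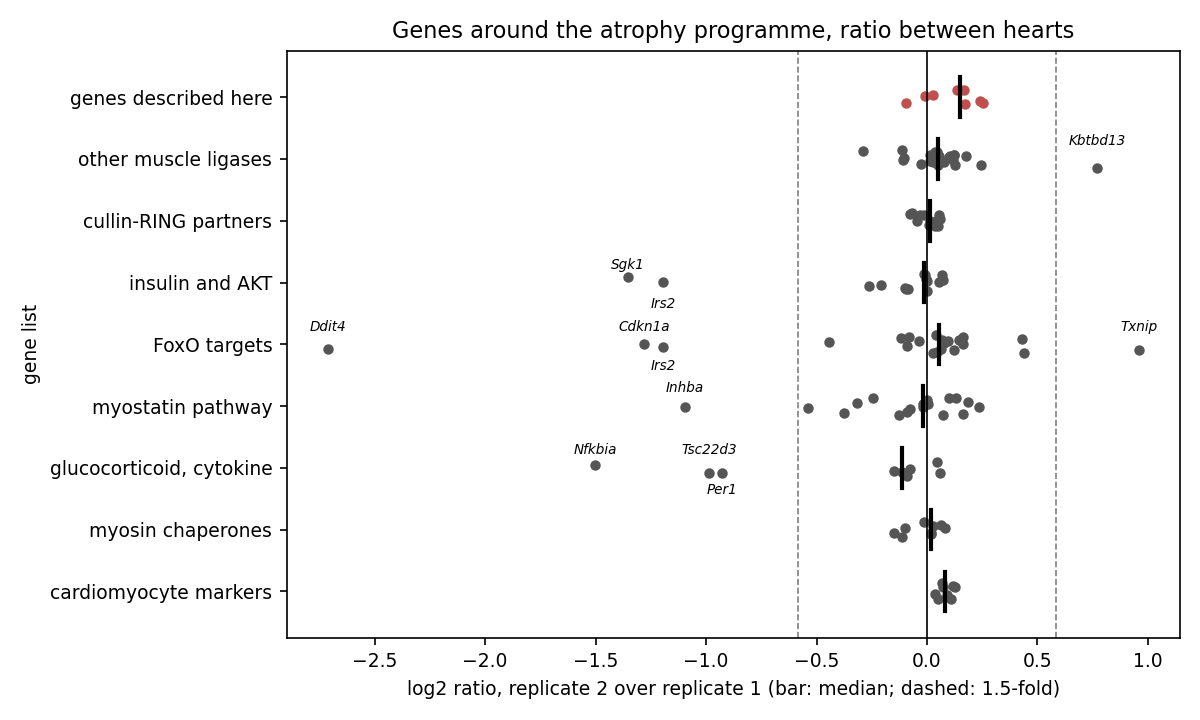
Log2 ratio of replicate 2 over replicate 1 for each gene with a mean count of 50 or more in 9 lists, with a bar at each list's median and dashed lines at 1.5-fold. The genes described here stay between -0.095 and 0.25, while Ddit4 lies at -2.71, Nfkbia at -1.501, Sgk1 at -1.35 and Txnip at 0.96.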

How the data were processed

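RNA was measured in 2 heart biosamples of 1 group. Expected counts, TPM and FPKM per gene and transcript, and the percent of a gene's TPM per transcript, were deposited by the authors as the first quantification, made on mm10 with GENCODE M21 per the submitters' processing notes and sample notes. The authors also deposited estimated counts and TPM per transcript as the second quantification, which were added up per gene here. Per the file headers the layouts match RSEM and kallisto output. No source used here names the aligner, the counter or their versions.

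Expected counts were rounded for TMM in edgeR 4.0.16 and for size factors in DESeq2 1.42.0 (R 4.3.3), and the other steps used Python 3.11.15 with pandas 2.3.3 and scipy 1.17.1. Log2 ratios used a prior count of 1 and a mean expected count of 50 or more, with exact Clopper-Pearson intervals at 95% on the 2 counts. Intervals cover counting error only, since the reads carry no molecular identifiers. The ratio was tested on simulated data. Depth was 42481559 expected counts in replicate 2 and 41846508 in replicate 1. Across 15749 genes log2(TPM + 1) gave a Pearson r of 0.991 between the hearts. TPM is scaled over all entries, of which nuclear protein-coding genes hold 37.9% in replicate 2 and 37.7% in replicate 1, so a TPM here is lower than one scaled to those genes alone.

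The genes and the lists around them were chosen with earlier results of these data known. Named are the 10 genes, the genes of the lists, the 3 most abundant genes of each family, transcripts holding 5% or more of their gene's TPM, and overlapping genes. Results for some genes of the lists are not reported here. Families were taken by symbol, and Bmp1 and Bmp2k, which are not ligands, were left out after the families were first counted. Promoters were RefSeq windows on GRCm38.p6, read for the 250 bases before the start. Alternatives covered thresholds, units, scalings, filters, the second quantification and each heart alone.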

Additional observations from a re-analysis of the deposited data

How the results depend on the processing

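The counts and the median for the 10 genes were computed again in 24 ways, and each kept its direction and stayed within the bound for its kind. Without replicate 1 or replicate 2, 9 of the 10 genes still reached 1 TPM. This count could not fall, since all 9 had reached 1 TPM in both hearts. The quantifications also still shared the leading transcript of all 10 genes. For 2 of these genes, Fbxo32 and Foxo1, the shared leading transcript was fixed in advance, since each had a single transcript. The stricter threshold of 2-fold could likewise only return 0 once 0 genes were 1.5-fold apart. The median ratio, 0.15, was 0.17 under library totals, 0.22 under spike-in totals, which put the median of all genes at 0.074, and 0.15 under DESeq2 size factors. Fbxo32, at -0.0074, turned to 0.016 under library totals and 0.066 under spike-in totals, so it has no direction. Of values for single genes 79 kept within the spread and 27 moved further, most of them levels rescaled to nuclear protein-coding genes, which are higher by construction, and ratios under spike-in totals. No paired analysis was possible because there is only 1 group. With 2 hearts the spread itself is poorly known, and Mstn is limited by its 15 and 11 counts.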
